A study of Mus musculus with 6 samples.

Results

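The ErbB receptors Egfr, Erbb2, Erbb3 and Erbb4 and the neuregulins Nrg1, Nrg2 and Nrg3 were followed in primary cortical cultures exposed to NGPF2, a factor that the labels give by this code only, or to vehicle. All 7 genes are among the 31245 of the deposited table. They were chosen by name, not by their values. Mouse pups of postnatal day 1 gave the cortices, and the cultures were treated at 12 to 13 days in vitro. 3 cultures received NGPF2 at 1.5 ng/ml for 2 h and 3 received vehicle (PBS) for 2 h. The sources used here name no genetic alteration, no strain and no number of animals per culture for either group. The series states 3 pairs of NGPF2 and vehicle cultures from 3 independent experiments, and a pair joins the cultures of the same replicate number.

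ErbB receptors are membrane tyrosine kinases that act as dimers. Egfr binds EGF, TGF-alpha, HB-EGF and amphiregulin and is known in the brain from progenitors and astrocytes. Erbb2 has no known ligand and serves as a dimer partner, Erbb3 binds neuregulins but has a weak kinase, and Erbb4 binds neuregulins and signals alone. In the cortex Erbb4 is known mainly from GABAergic interneurons, and Nrg1, Nrg2 and Nrg3 are made largely by neurons as membrane-bound precursors.

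The totals ran from 17478070 to 45193691 counts per library. Values below are normalized counts (the count divided by the library's size factor), and log2 differences are NGPF2 minus vehicle of log2 (normalized count + 1). The library names in the titles of replicates 2 and 3 share a stem that replicate 1 lacks, so each comparison is also given within these sets. Markers of all neurons, such as Snap25 and Tubb3, gave sums of 175237, 247656 and 239022 in NGPF2 1, 2 and 3 and of 176149, 195546 and 192948 in vehicle 1, 2 and 3. Pair 1 had a median log2 difference of 0.02 over the 10 astrocyte markers kept, against medians of -3.09 for pair 2 and -2.94 for pair 3. In bulk RNA, fewer cells of a type and less RNA per cell cannot be told apart.

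Egfr and Erbb2 are the 2 receptors whose levels were lower with NGPF2 in both pair 2 and pair 3, and the 250 bases before their RefSeq starts on GRCm38.p6, both on the plus strand, are shown for that reason. The Egfr window lies at chr11:16751953-16752202 and the Erbb2 window at chr11:98412234-98412483. Capitals mark a GC box, searched as GGGCGG on both strands.
Egfr: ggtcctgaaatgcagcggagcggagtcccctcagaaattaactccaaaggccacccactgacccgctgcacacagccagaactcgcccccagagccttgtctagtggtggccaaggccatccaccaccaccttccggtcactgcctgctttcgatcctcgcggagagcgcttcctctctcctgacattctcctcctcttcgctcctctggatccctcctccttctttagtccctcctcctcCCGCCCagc
Erbb2: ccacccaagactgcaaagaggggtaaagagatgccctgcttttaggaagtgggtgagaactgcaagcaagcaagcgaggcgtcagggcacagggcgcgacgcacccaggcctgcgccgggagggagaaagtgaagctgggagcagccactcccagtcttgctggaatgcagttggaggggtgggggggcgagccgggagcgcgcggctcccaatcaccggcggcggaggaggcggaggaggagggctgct

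The Egfr window held 1 GC box, on the minus strand and beginning 9 bases before the start, and the Erbb2 window held none. Of 32851 promoter windows of the same 250 bases, 32.7% held this motif. Neither window held TATAAA or TGACGTCA, searched on both strands and present in 12.4% and 1.55% of all windows. The GC content was 60.8% for Egfr and 66% for Erbb2, against a median of 52.4%. RefSeq promoters were found for 4 of the 7 genes, the others being those of Erbb4 and Nrg3.

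Per length of exon, Erbb4 was the most abundant of the 7 genes and Erbb3 the least. As CPM (counts scaled to a common library total) per kilobase of exon, Erbb4 averaged 18.3 ± 13.0 in NGPF2 cultures and 17.2 ± 11.5 in vehicle cultures (SD, n = 3 each). Nrg3 averaged 7.42 ± 1.54 with NGPF2 and 7.37 ± 1.87 with vehicle. Egfr averaged 2.22 ± 1.92 with NGPF2 and 3.64 ± 0.475 with vehicle. On this scale Nrg2 (2.64 ± 0.365 with NGPF2, 2.16 ± 0.284 with vehicle) overlapped Egfr across libraries. Nrg1 (0.696 ± 0.135 with NGPF2, 0.854 ± 0.273 with vehicle) likewise overlapped Erbb2 (0.456 ± 0.187 with NGPF2, 0.585 ± 0.0967 with vehicle). Erbb3 stood at 0.0518 ± 0.00613 with NGPF2 and 0.0465 ± 0.0251 with vehicle. Egfr in NGPF2 2 (1.05) also lay below Nrg1 in vehicle 3 (1.13), but Egfr exceeded Nrg1 within every library. The other neighbours in this order did not overlap. Among the 16653 genes kept (mean normalized count of at least 10), the level of Erbb4 per length ranked between the 71.3 and 91.5 percentiles across libraries, and that of Erbb2 between the 16.7 and 20.7 percentiles.

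**Figure D1:**
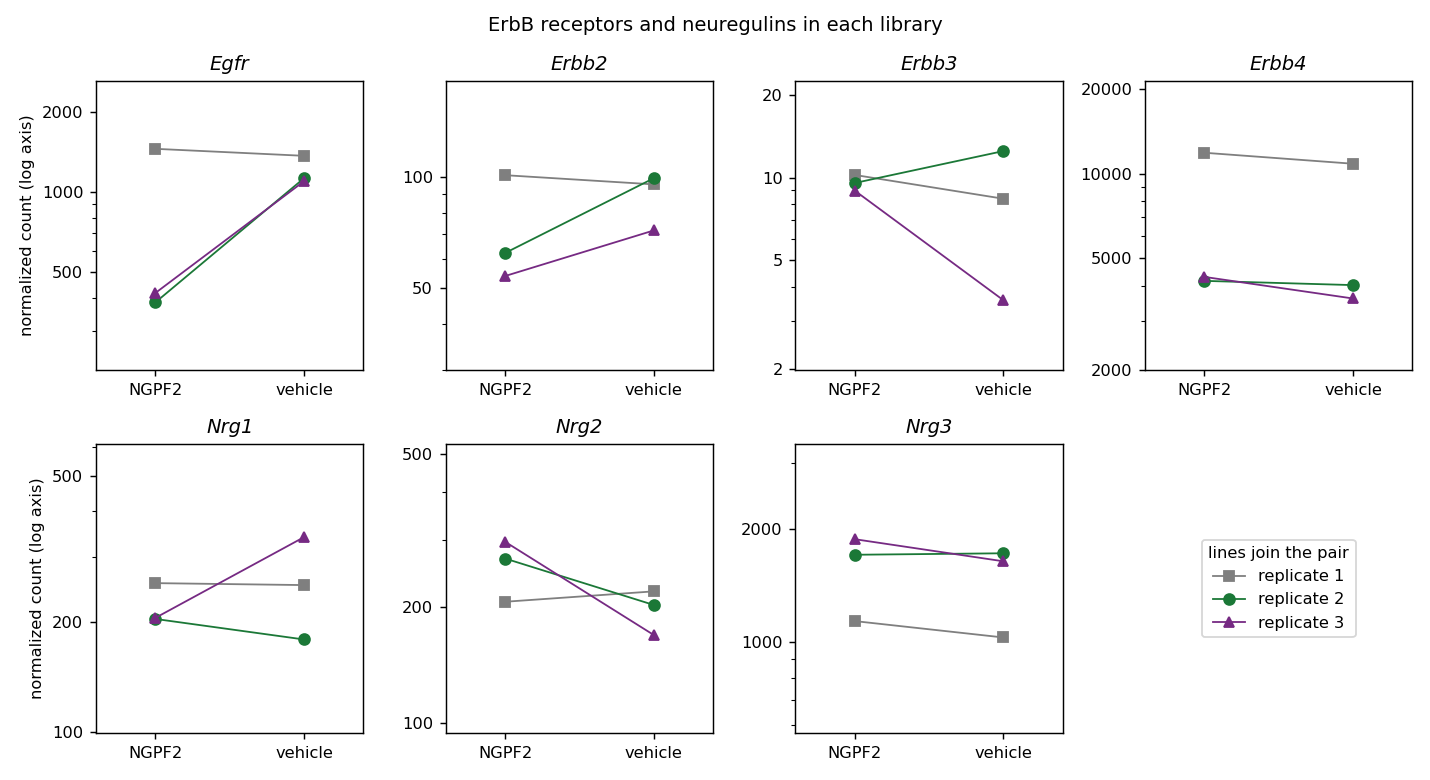
Normalized counts of the 7 genes (log axes) in each library, with NGPF2 left of vehicle and a line joining each pair. Egfr is lower with NGPF2 in replicates 2 and 3 (384 and 416 against 1126 and 1097) and near equal in replicate 1, and Erbb4 and Egfr stand highest in replicate 1.

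No ErbB receptor or neuregulin passed over the 3 pairs (limma, adjusted p under 0.05), where 0% of the 16653 genes passed at all and 2166 had an unadjusted p under 0.05. With voom on the recovered counts 0 genes passed as well. Within replicates 2 and 3, Egfr alone of the 6 genes tested passed, as lower with NGPF2, where 21.1% of all genes passed, 9.77% as higher and 11.3% as lower. 1 of 6 is thus near the share of all genes. The median log2 difference in replicates 2 and 3 was -0.09 over the 6 genes and -0.003 over all genes. Erbb3 lay below the minimum count and was not tested with the others. The test within replicates 2 and 3 rests on 2 libraries per group and takes them as independent cultures, and no separate animals are named for them.

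Among the receptors, Egfr (ENSMUSG00000020122, chromosome 11, 16752203 to 16918158, mm10, plus strand) had 1454, 384 and 416 normalized counts in NGPF2 1, 2 and 3, against 1368, 1126 and 1097 in vehicle 1, 2 and 3. The NGPF2 libraries of replicates 2 and 3 lay below every vehicle library, while NGPF2 1 was the highest of the 6. Egfr fell 2.78-fold in replicates 2 and 3, with a log2 difference of -1.47 (SE 0.10, 95% interval -1.72 to -1.22, adjusted p = 0.00222, limma). Over the 3 pairs its log2 difference was -0.95 (SE 0.33, 95% interval -1.79 to -0.11, adjusted p = 0.379, limma), lower in 2 of 3 pairs. Without replicate 1 it was -1.47 (adjusted p = 0.00112, limma), the only one of 13 alternatives in which Egfr passed over the pairs, where adjusted p ran from 0.00112 to 0.991.

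For Egfr the effect in replicates 2 and 3 minus that in replicate 1 was -1.56 (SE 0.16, 95% interval -1.97 to -1.15, adjusted p = 0.0215, limma interaction), and 1 of the 6 genes and 2.49% of all genes passed this test (0.721% as higher, 1.77% as lower). Replicate 1 holds 1 library per group, so that its spread was taken to be that of replicates 2 and 3. Leaving out vehicle 2 or vehicle 3 gave an Egfr log2 difference of -1.45 or -1.49 in replicates 2 and 3, but no gene of the table then passed (adjusted p = 0.125 and 0.130 for Egfr, limma; 3610 and 3623 genes at an unadjusted p under 0.05). The difference of the effects was likewise not called without either of them (adjusted p = 0.335 and 0.345, limma), nor without the variance trend (0.0906). Over the 13 alternatives the adjusted p of Egfr in replicates 2 and 3 ran from 0.000739 to 0.130.

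**Figure D2:**
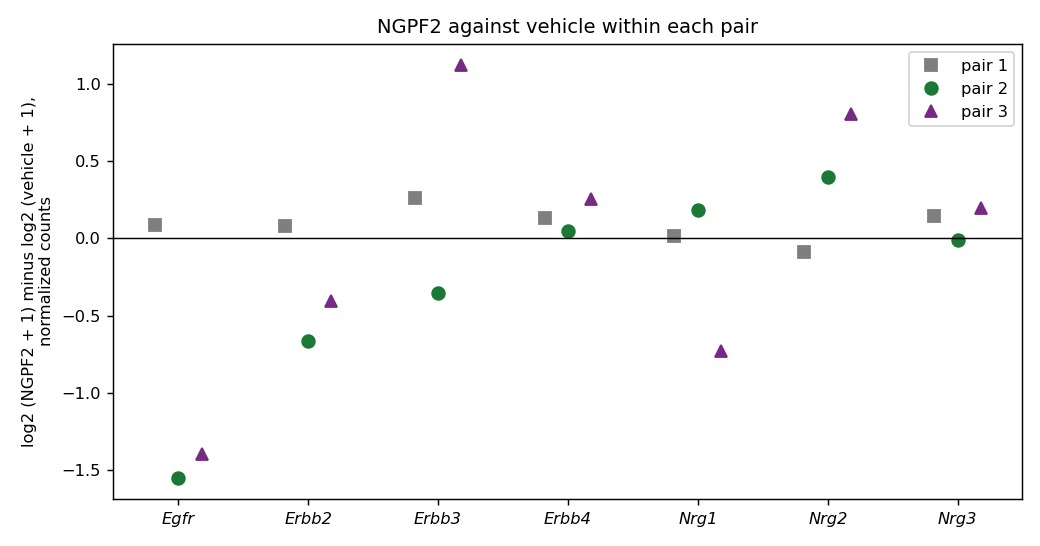
The log2 difference of NGPF2 minus vehicle within each pair, for the 7 genes. In pair 1 the 6 genes above the minimum count lie between -0.09 and 0.15, while Egfr lies at -1.55 and -1.40 in pairs 2 and 3.

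Markers of astrocytes and of progenitors, in which Egfr is known, were lower in the same 2 pairs. The 11 astrocyte markers summed to 25916, 17407 and 14301 normalized counts in NGPF2 1, 2 and 3, against 22376, 61361 and 54978 in vehicle 1, 2 and 3. All 10 kept astrocyte markers fell in replicates 2 and 3, by log2 differences from -4.99 for Gfap, the intermediate filament of astrocytes, to -0.80 for Slc1a2, a glutamate transporter. Of these 10, 9 were more negative than Egfr. None of the list was at 0 in every library, and Gjb6, the gap junction protein connexin 30, was at 0 in NGPF2 2 and 3.

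The 8 progenitor markers summed to 10427, 5158 and 4968 normalized counts in NGPF2 1, 2 and 3, against 10549.7, 13294 and 14263 in vehicle 1, 2 and 3. Of them 6 fell in replicates 2 and 3 and 0 rose, and 2, Fabp7 and Vim, were more negative than Egfr. The 6 markers of oligodendrocyte precursors summed to 3616, 1254 and 1298 with NGPF2, against 3507, 7285 and 6747 with vehicle, and 3 of the 5 kept fell, among them the transcription factors Olig1 and Olig2. The part of any of these cells in the Egfr difference was not tested.

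**Figure D3:**
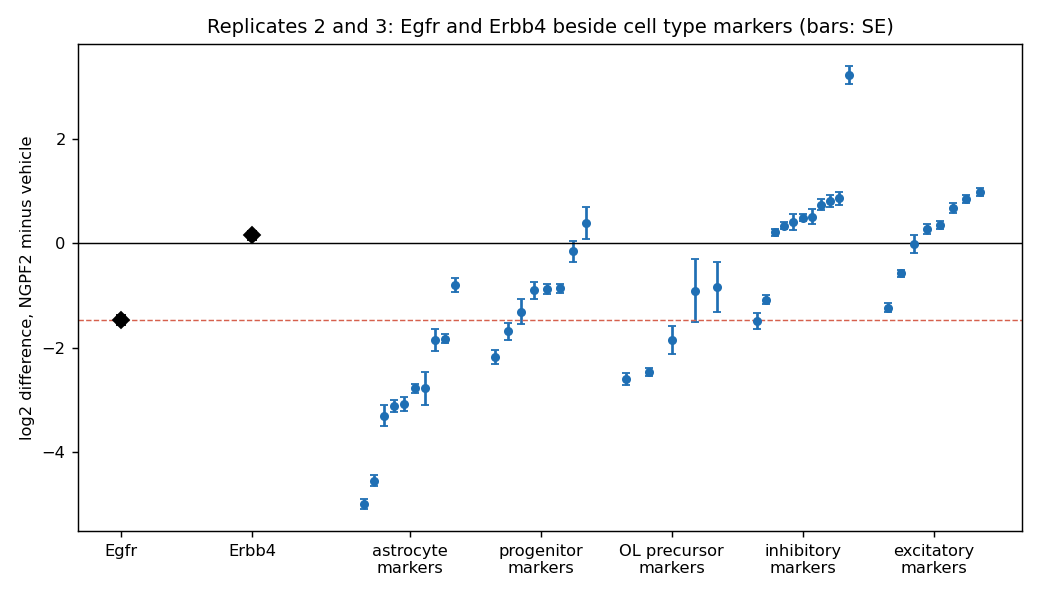
Log2 difference of NGPF2 minus vehicle in replicates 2 and 3 (bars are SE; 2 libraries per group) for Egfr, Erbb4 and each kept marker of 5 cell types, where OL is oligodendrocyte. The dashed line is the value of Egfr (-1.47), and 9 of 10 astrocyte markers lie below it while Erbb4 lies at 0.15.

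Erbb2, the dimer partner without a ligand (ENSMUSG00000062312, chromosome 11, 98412470 to 98437716, plus strand), had 101, 62.2 and 53.8 normalized counts in NGPF2 1, 2 and 3, against 95.4, 99.1 and 71.6 in vehicle 1, 2 and 3. In replicates 2 and 3 both NGPF2 libraries lay below both vehicle libraries, and in replicate 1 they were near equal. The log2 difference in replicates 2 and 3 was -0.53 (SE 0.26, 95% interval -1.21 to 0.14, adjusted p = 0.21, limma), and over the 3 pairs it was -0.33 (SE 0.26, adjusted p = 0.551). The value in replicates 2 and 3 was -0.15 with quantile scaling, -0.30 without vehicle 2 and -0.77 without vehicle 3. The counts behind these values were few, from 30 to 158 per library. Of its exons, 9 bases are shared with Mien1 on the opposite strand.

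Erbb3, the neuregulin receptor known from oligodendrocyte lineage and Schwann cells (ENSMUSG00000018166, chromosome 10, 128567523 to 128589652, minus strand), had 16, 8 and 5 counts in NGPF2 1, 2 and 3, against 13, 14 and 3 counts in vehicle 1, 2 and 3. As normalized counts these were 10.2, 9.56 and 8.97 with NGPF2 and 8.38, 12.5 and 3.58 with vehicle. The groups overlapped, and the exact 95% Poisson intervals of the lowest NGPF2 library (2.91 to 20.9 normalized counts) and the lowest vehicle library (0.738 to 10.5) overlapped too. A difference was not detectable at this depth. With no filter the log2 difference over the 3 pairs was 0.34 (SE 0.50, adjusted p = 0.742, limma).

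Erbb4, the neuregulin receptor of interneurons (ENSMUSG00000062209, chromosome 1, 68032186 to 69108059, minus strand), had 11887, 4159 and 4297 normalized counts in NGPF2 1, 2 and 3, against 10863, 4017 and 3599.6 in vehicle 1, 2 and 3. It was slightly higher with NGPF2 in each of the 3 pairs, by 0.13, 0.05 and 0.26, and the groups overlapped over the 3 replicates. Scaled by library total instead, Erbb4 was lower with NGPF2 in pair 2 (10.4 against 11.1 CPM per kilobase). The log2 difference was 0.15 (SE 0.09, 95% interval -0.09 to 0.38, adjusted p = 0.48, limma) over the 3 pairs. In replicates 2 and 3 it was 0.15 (SE 0.08, 95% interval -0.05 to 0.36, adjusted p = 0.235). This interval, 0.965-fold to 1.28-fold, holds for this scaling only. There the log2 difference was 0.026 (SE 0.079) with library total scaling and 0.051 (SE 0.079) with quantile scaling.

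The level of Erbb4 differed more between the library name sets than between NGPF2 and vehicle within them. The 2 libraries of replicate 1, which also had the largest totals, stood 2.83-fold above the mean of the 4 of replicates 2 and 3, without overlap. Of all genes 51.8% did not overlap between the sets, 26.9% being higher and 24.9% lower in replicate 1, and 8.54% were higher by more than 2-fold. This is a description with no test. Egfr was also higher in replicate 1 without overlap, 3.63-fold among NGPF2 libraries but 1.23-fold among vehicle libraries, and Nrg3 was lower there (0.622-fold) without overlap, while Erbb2, Nrg1 and Nrg2 overlapped. The 11 inhibitory neuron markers summed to 145341 and 149904 normalized counts in NGPF2 1 and vehicle 1, against 53164 to 73855 in replicates 2 and 3, 2.31-fold apart in the means. The 8 excitatory neuron markers went the other way, at 28900 and 29468 in replicate 1 against 83683 to 121174 in replicates 2 and 3. The part of these cells in the level of Erbb4 was not tested.

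Within replicates 2 and 3 the inhibitory marker sum was 1.32-fold higher with NGPF2, and 6 of its 11 genes rose and 2 fell. Gad1, an enzyme of GABA synthesis, rose 1.41-fold (adjusted p = 0.012, limma; log2 difference 0.49, but 0.25 and adjusted p = 0.061 with quantile scaling), and Sst, a neuropeptide, fell 2.11-fold (adjusted p = 0.00287). Of the 8 excitatory markers 4 rose and 2 fell, and of the 8 markers of all neurons 5 rose and 0 fell.

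The receptor transcripts had a different makeup with NGPF2 than with vehicle in replicates 2 and 3. Per length of exon, Erbb4 made up 86.6%, 87.7% and 87.7% of the receptor transcripts in NGPF2 1, 2 and 3, against 86.2%, 73.0% and 72.4% in vehicle 1, 2 and 3. Egfr made up 11.5%, 8.82% and 9.28% with NGPF2, against 11.8%, 22.3% and 24.1% with vehicle. The ratio of Erbb4 to Egfr per length was 7.49, 9.94 and 9.46 with NGPF2 and 7.28, 3.27 and 3.01 with vehicle. These shares are a description, with no test of their own.

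**Figure D4:**
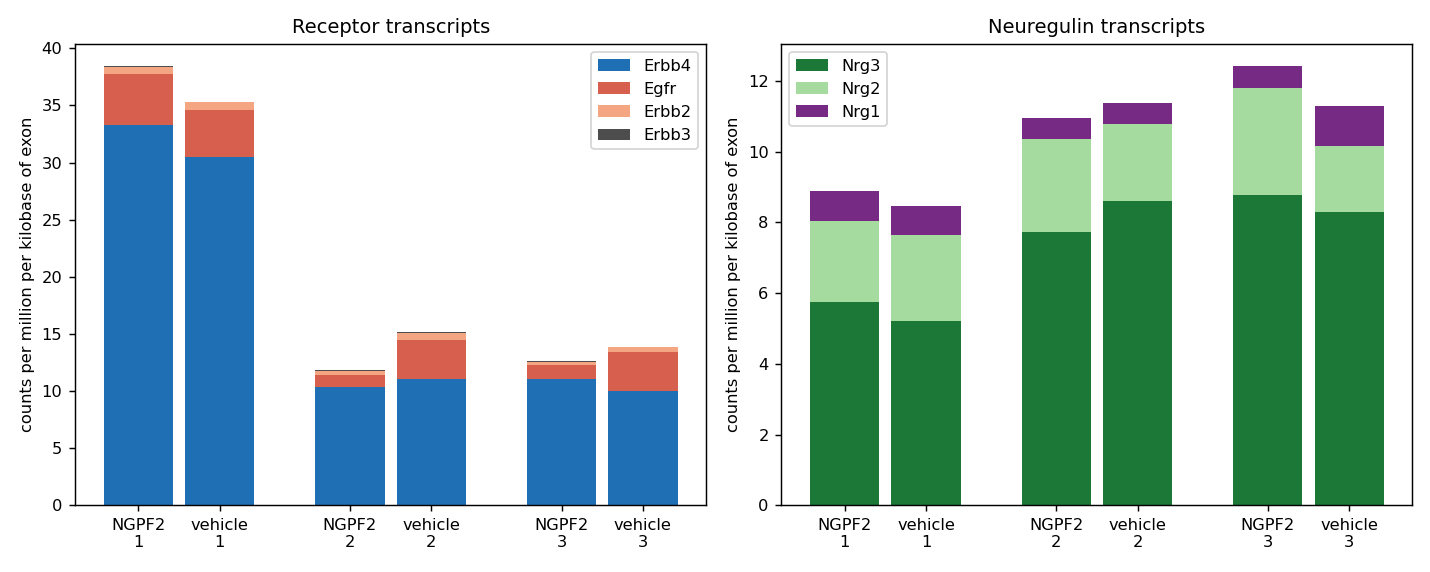
CPM per kilobase of exon, stacked over the 4 receptors (left) and the 3 neuregulins (right) in each library, with NGPF2 left of vehicle in each pair. Erbb4 makes up 72.4% to 87.7% of the receptor transcripts, and Nrg3 makes up 61.5% to 75.5% of the neuregulin transcripts.

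Among the neuregulins, Nrg2 (ENSMUSG00000060275, chromosome 18, 36017652 to 36197380, minus strand), a ligand of Erbb3 and Erbb4, had 207, 268 and 296 normalized counts in NGPF2 1, 2 and 3, against 219.9, 203 and 169 in vehicle 1, 2 and 3. In replicates 2 and 3 both NGPF2 libraries lay above both vehicle libraries, and in replicate 1 NGPF2 was slightly lower. The log2 difference in replicates 2 and 3 was 0.60 (SE 0.16, 95% interval 0.19 to 1.01) and just missed the threshold (adjusted p = 0.0565, limma). It passed with a minimum of 50 (adjusted p = 0.0443), with quantile scaling (0.0204) and with voom (0.0487), and over the 13 alternatives the adjusted p ran from 0.0204 to 0.282. Over the 3 pairs the log2 difference was 0.37 (SE 0.22, adjusted p = 0.455). The effect in replicates 2 and 3 minus that in replicate 1 was 0.69 (SE 0.28, adjusted p = 0.257).

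Nrg1, the best studied neuregulin and a ligand of Erbb3 and Erbb4 (ENSMUSG00000062991, chromosome 8, 31814551 to 32884029, minus strand), had 255, 203 and 205 normalized counts in NGPF2 1, 2 and 3, against 251, 179 and 339.9 in vehicle 1, 2 and 3. The groups overlapped, and vehicle 3 stood above all other libraries. The log2 difference was -0.27 (SE 0.32, 95% interval -1.08 to 0.54, adjusted p = 0.582, limma) in replicates 2 and 3 and 0.19 without vehicle 3. Over the 3 pairs it was -0.18 (SE 0.23, adjusted p = 0.715) and 0.10 without replicate 3. The annotation gives Nrg1 18 transcripts, which the table does not separate, and 482 of its exon bases are shared with Gm26578 on the opposite strand.

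Nrg3, a neuregulin that binds Erbb4 (ENSMUSG00000041014, chromosome 14, 38368952 to 39473088, minus strand), had 1135, 1707 and 1879 normalized counts in NGPF2 1, 2 and 3, against 1026, 1723 and 1640.0 in vehicle 1, 2 and 3. The groups overlapped, and both libraries of replicate 1 lay below the other 4. The log2 difference was 0.11 (SE 0.10, 95% interval -0.15 to 0.37, adjusted p = 0.611, limma) over the 3 pairs and 0.09 (SE 0.09, 95% interval -0.13 to 0.31, adjusted p = 0.487) in replicates 2 and 3, where scaling by library total gave -0.035. Per length of exon, Nrg3 made up 64.8%, 70.5% and 70.7% of the neuregulin transcripts in NGPF2 1, 2 and 3, against 61.5%, 75.5% and 73.5% in vehicle 1, 2 and 3.

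The genes whose pattern over the 6 libraries was most like each member were taken by the smallest root mean square difference of centred log2 values, among 11217 named genes with a mean of at least 100. For Egfr these were Gusb, the lysosomal beta-glucuronidase (0.064), and Nt5dc2 (0.079). For Erbb2 they were Zfp882 (0.052) and B3gntl1 (0.055). Crim1, a transmembrane protein that binds BMPs (0.041), and Fgf11 (0.075) were nearest to Erbb4. Sar1a (0.075) and Hps1 (0.093) were nearest to Nrg1, Tspoap1 (0.051) and Rrp36 (0.056) to Nrg2, and Hnrnpa3 (0.045) and Tasp1 (0.05) to Nrg3. Gusb had 296, 82.5 and 80.8 normalized counts in NGPF2 1, 2 and 3, against 305, 244 and 228 in vehicle 1, 2 and 3. Its lowest libraries were those of Egfr, NGPF2 2 and 3, which follows from how Gusb was picked and is no separate result.

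Other genes of the pathway were described from 6 lists, with 65 of 68 genes kept. None passed over the 3 pairs (14 at an unadjusted p under 0.05, limma). For the effect in replicates 2 and 3 minus that in replicate 1, 5 of the 65 passed. This was 7.69% of them, against 2.49% of all genes, with 1 library per group in replicate 1. In replicates 2 and 3, 14 rose and 17 fell, together 47.7% of those kept, against 21.1% of all genes. The lists were chosen with earlier results of these data known, and the 2 shares were not tested against each other. With a minimum of 50, 32 pathway genes and 27.5% of all genes passed, so the share of all genes depends on the filter. Of the kept genes 10 passed with no filter (3.44% of all genes), 12 without the variance trend (9.22% of all genes), and 0 without vehicle 2 or without vehicle 3, where no gene of the table passed. Of 5 other ErbB ligands kept, 1 fell and 0 rose. Hbegf, the heparin-binding ligand of Egfr and Erbb4, had 829.7, 277 and 293 normalized counts in NGPF2 1, 2 and 3, against 893, 606 and 599.9 in vehicle 1, 2 and 3. It fell 2.11-fold in replicates 2 and 3 (log2 difference -1.08, SE 0.11, adjusted p = 0.00524). Tgfa, a ligand of Egfr, did not pass (-0.76, SE 0.39, adjusted p = 0.223), with 837, 142 and 314 with NGPF2 and 1342, 397 and 323 with vehicle. Areg (0.52, adjusted p = 0.284) and Nrg4 (0.27, adjusted p = 0.685) did not pass either. Ereg, Btc and Epgn lay below the minimum, each at or under 8.97 normalized counts in every library.

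Of the 6 genes of ligand shedding 2 rose and 3 fell in replicates 2 and 3, with a median log2 difference of -0.59. Adam17, the protease that sheds most Egfr ligands, fell 1.98-fold (log2 difference -0.99, SE 0.14, adjusted p = 0.0116, limma), with 296, 196 and 172 normalized counts in NGPF2 1, 2 and 3 and 230.2, 379 and 353 in vehicle 1, 2 and 3. Rhbdf1, which brings Adam17 to the cell surface, fell 2.46-fold (adjusted p = 0.012). Bace1, the protease that cleaves neuregulins in neurons, rose 1.72-fold (log2 difference 0.79, SE 0.09, adjusted p = 0.00648). Bace1 had 3463, 5468 and 4776 normalized counts with NGPF2 and 5634, 2953 and 2972 with vehicle, so that it was lower with NGPF2 in pair 1. Its effect in replicates 2 and 3 minus that in replicate 1 was 1.49 (adjusted p = 0.0215), in the test that 2.49% of all genes passed, with 1 library per group in replicate 1. No gene passed that test without vehicle 2 or without vehicle 3. Adam19, another protease of neuregulin processing, rose 1.77-fold (adjusted p = 0.012).

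Of 28 adaptors and kinases 6 rose and 5 fell in replicates 2 and 3, with a median of -0.04. Gab1, a docking protein of Egfr, fell 4.87-fold (log2 difference -2.28, SE 0.19, adjusted p = 0.00316, limma). It had 420.3, 72.9 and 66.4 normalized counts in NGPF2 1, 2 and 3, against 422, 381 and 308 in vehicle 1, 2 and 3. Its effect in replicates 2 and 3 minus that in the single pair of replicate 1 was -2.28. This difference passed its test, with the same limits as for Bace1. The kinase Mapk3 rose 1.65-fold (adjusted p = 0.00632) and the GTPase Hras 1.46-fold (adjusted p = 0.00762), and Pik3ca, a catalytic subunit of PI3 kinase, fell 1.43-fold (adjusted p = 0.0184). Pik3ca was lower in all 3 pairs (-0.33, -0.57 and -0.47).

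Of 9 genes of receptor turnover and inhibition 2 rose and 1 fell in replicates 2 and 3. Lrig1, a transmembrane protein that lowers ErbB receptor levels, had 1698, 571 and 704 normalized counts in NGPF2 1, 2 and 3, against 1719, 2737 and 2781 in vehicle 1, 2 and 3. It fell 4.35-fold (log2 difference -2.12, SE 0.12, adjusted p = 0.0016, limma), and its effect in replicates 2 and 3 minus that in the single pair of replicate 1 was -2.10 (adjusted p = 0.0215), with the same limits as for Bace1. The ubiquitin ligase Cblb rose 1.75-fold (adjusted p = 0.0224) and Errfi1, a cytoplasmic inhibitor of Egfr and Erbb2, rose 1.28-fold (adjusted p = 0.0324). The call of Errfi1 ended with library total scaling, where its log2 difference was 0.23 (adjusted p = 0.0911) in place of 0.36. Lrig3 did not pass (-1.42, adjusted p = 0.0657). Of 5 scaffolds that bind ErbB tails 2 rose and 1 fell. Dlg4, the postsynaptic scaffold PSD-95, rose 1.23-fold (adjusted p = 0.0282) and Dlg3 rose 1.19-fold (adjusted p = 0.046), and Erbin, a partner of Erbb2, fell 1.91-fold (adjusted p = 0.0207). The calls of Dlg4 and Dlg3 ended under both other scalings. Dlg4 had a log2 difference of 0.17 with library total scaling (adjusted p = 0.0834) and 0.058 with quantile scaling (adjusted p = 0.512), against 0.29 as reported. For Dlg3 these were 0.12 (adjusted p = 0.189) and 0.059 (adjusted p = 0.505), against 0.25. Dlg1 did not pass (-0.23, adjusted p = 0.0623).

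Of 12 transcripts known to respond to growth factors 2 rose and 6 fell in replicates 2 and 3, with a median of -0.23. Spry4, a feedback inhibitor of receptor tyrosine kinases, fell 2.17-fold (log2 difference -1.12, SE 0.09, adjusted p = 0.00315, limma), with 1202, 648 and 641 normalized counts in NGPF2 1, 2 and 3 against 1116, 1338 and 1468 in vehicle 1, 2 and 3. Spry2 fell 1.43-fold (adjusted p = 0.0126), the phosphatase Dusp4 1.62-fold (adjusted p = 0.00791) and the transcription factor Fos 1.56-fold (adjusted p = 0.00789). For Spry4 the effect in replicates 2 and 3 minus that in the single pair of replicate 1 was -1.23. This difference passed its test, with the same limits as for Bace1. In pair 1 the median of this list was 0.009. The medians over all genes were -0.003 in pair 1, -0.006 in pair 2 and 0 in pair 3. The astrocyte markers were lower in the same 2 pairs, with medians of -3.09 and -2.94, and their part in these changes was not tested.

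**Figure D5:**
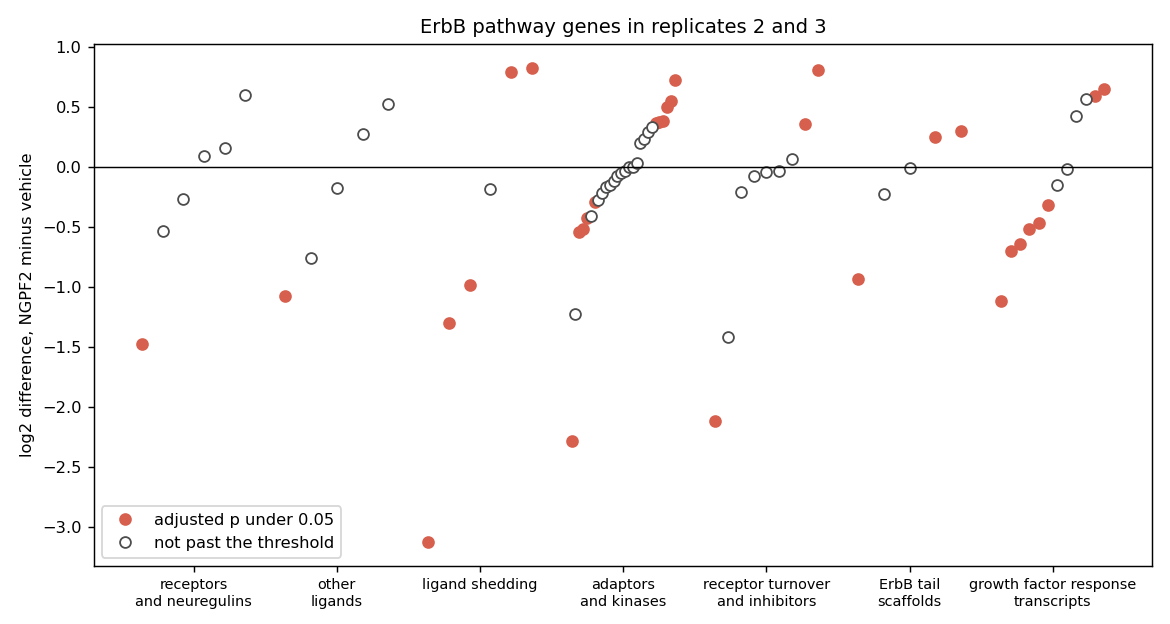
Log2 difference of NGPF2 minus vehicle in replicates 2 and 3 for each kept gene of the 7 receptors and neuregulins and of 6 lists of pathway genes; filled points passed at an adjusted p under 0.05. Egfr (-1.47) is the only filled point among the receptors and neuregulins, and 14 pathway genes rose and 17 fell.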

How the data were processed

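Poly(A) RNA of 6 primary cortical cultures was sequenced. Per the submitters' processing notes, mm10, STAR 2.5, DESeq 1.22.1, Cuffnorm and FastQC were used, in roles and an order that are not stated. The annotation, the counter and its use of strand were not given in the sources used here. Although its name says FPKM, the deposited table holds log2 values, namely of size-factor normalized counts with 1 added. Undoing the log2 gave whole reads for 100% of values in each library, within 0.01 of a read. The recovered size factors equal median-of-ratios factors of the recovered counts. 4 columns carry the library names of the titles, and the 2 others were assigned to replicate 1 by elimination and initial. The names of these 2 columns carry the digit 3, which goes against replicate number 1, and every replicate 1 value rests on this assignment.

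Genes averaging 10 normalized counts or more were tested on the log2 scale (pseudocount 1) by limma 3.58.1, run in R 4.3.3 (mean-variance trend, 2-sided, Benjamini-Hochberg over 16653 genes, threshold 0.05). 3 fits were made, over 3 pairs with the replicate number as a block, within replicates 2 and 3 without a block, and for the interaction of treatment with the library name set. The pairing follows the series; across genes, deviations from group means had r = 0.59 in pair 1, 0.30 in pair 2 and 0.33 in pair 3, while crossing pairs 2 and 3 gave 0.32 and 0.34. The fits were also run on simulated data, with noise drawn independently for each library. Such data cannot test whether the libraries are independent, and no conclusion here rests on them. Levels per length use exon unions, and GENCODE M21 (mm10) supplied exons and coordinates. Intervals of single counts cover counting error only.

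The members, the 6 pathway lists and the 11 marker lists were chosen with earlier results of these data known. Besides all members, the text names up to 4 genes of smallest p in replicates 2 and 3 per pathway list, those below the minimum, the 2 genes most like each member, and examples from the marker lists, chosen after their values were seen. Marker lists not described elsewhere gave, in replicates 2 and 3, 6 of 8 microglia, 3 of 8 fibroblast and mural, 2 of 7 oligodendrocyte, 0 of 3 endothelial and 6 of 8 dividing cell markers lower, and 0 higher in each. Alternatives covered pseudocount, filter, scaling, variance prior, voom, the blocks and leaving out libraries.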

Additional observations from a re-analysis of the deposited data

Results flagged for a closer look

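The NGPF2 effect on Egfr in replicates 2 and 3 minus that in replicate 1 was -1.56 on the log2 scale (SE 0.16, adjusted p = 0.0215, limma interaction), which passed the test of the difference. Replicate 1 has 1 library per group, and its spread was taken to be that of replicates 2 and 3. Egfr was 0.09 higher with NGPF2 in pair 1 with log2 differences of -1.55 and -1.40 in pairs 2 and 3. It passed under 10 of 13 alternatives, with adjusted p from 0.00501 to 0.345, and not without vehicle 2, without vehicle 3 or without the variance trend.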

How the results depend on the processing

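Of the members' values under the alternatives, 216 kept their direction and side of the threshold and 18 did not. Leaving out replicates, the members called ranged from 0 to 1 over the 3 pairs, from 0 to 1 in replicates 2 and 3 and from 0 to 1 for the difference of the effects, and the pathway genes called ranged from 0 to 25 over the 3 pairs and from 0 to 28 in replicates 2 and 3. In replicates 2 and 3 the members called were 2 with a minimum of 50, with quantile scaling and with voom (Nrg2 added), and the pathway genes called were 31 in the main analysis, 10 with no filter (more genes tested) and 12 without the variance trend. Without that trend 0 members passed for the difference of the effects. The cause was not tested.

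The sign turned for Nrg3 in replicates 2 and 3 with library total scaling (-0.035), and for the difference of the effects of Erbb4 with library total scaling (-0.10) and quantile scaling (-0.074). Leaving out libraries, values ranged from -0.36 to 0.10 for Nrg1 over the 3 pairs, from -0.73 to 0.19 for Nrg1 in replicates 2 and 3, and for the difference of the effects from -0.75 to 0.17 for Nrg1, from -0.056 to 0.10 for Erbb4 and from -0.12 to 0.015 for Nrg3. Library total scaling moved the median of all genes in replicates 2 and 3 by -0.13, with 982 genes higher and 2664 lower, against 1627 and 1884 in the main analysis. All 31 pathway calls kept their direction under it and under quantile scaling, and 24 and 26 still passed.

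With no replicate block 0 members and 0 pathway genes passed over the 3 pairs, and adjusted p for Egfr was 0.803. With the replicate block within replicates 2 and 3, 1 member and 25 pathway genes passed, and for the difference of the effects 1 member, so that the block changed no call of a member. Erbb3, with 3 to 16 counts per library, and Erbb2, with 30 to 158, are limited by depth.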

Other observations

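Pvalb, the calcium-binding protein of the basket cells in which Erbb4 is well known, was picked from the inhibitory marker list after its values were seen. It had 41.6, 419.6 and 488 normalized counts in NGPF2 1, 2 and 3, against 54.2, 46.4 and 48.9 in vehicle 1, 2 and 3. In replicates 2 and 3 it was 9.32-fold higher with NGPF2 (log2 difference 3.22, SE 0.17, adjusted p = 0.00148, limma), while Erbb4 differed by 0.15 there. Reln, an extracellular protein of interneurons, rose 1.76-fold and Npy, a neuropeptide, fell 2.79-fold in the same libraries (adjusted p = 0.0107 and 0.00565).

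Slc1a2, a glutamate transporter of astrocytes, was the astrocyte marker with the smallest fall in replicates 2 and 3 (1.75-fold, adjusted p = 0.017, limma). It also stood apart in pair 1, with 6056 normalized counts in NGPF2 1 and 2697 in vehicle 1, where Gfap held 3029 and 2914 and Egfr 1454 and 1368.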
